A study of Arabidopsis thaliana with 4 samples.

Results

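The pectin methylesterase family of Arabidopsis thaliana was followed in roots after 5 hours at low oxygen. The family was taken as 58 listed loci. A locus counted as measured when the array's probe-gene table assigned a probe set to that gene and no other, and where several existed the one with the highest mean over all arrays was to be used. Of the 58 genes, 37 were measured, each by 1 probe set, among 13356 genes with a probe set of their own. A further 4 genes lay only on 2 shared probe sets, and 17 were not listed in the table and were not analysed here. The symbols of the 17 included PME1, PME2, PME3, PME5, PME7, PME31, PME38, PME44, PMEPCRA, ATPMEPCRC, PE11, VGDH2, RHS12 and QRT1.

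Pectin is the acidic polysaccharide of the primary wall and middle lamella. It leaves the Golgi in a highly methylesterified form, and pectin methylesterases in the wall then remove methyl groups from its homogalacturonan backbone, releasing methanol and protons. Demethylesterified stretches can bind calcium into stiff gels or be cut by polygalacturonases and pectate lyases, and many of the enzymes are made with an inhibitor-like N-terminal region that proteases remove. In roots the family is known from cell elongation, root hairs and lateral root emergence, and another part of it is known from pollen.

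Low oxygen roots came from seedlings whose canisters were filled by a 20-minute flow of gas holding 0.1% oxygen and then closed, and normal oxygen roots from seedlings in unsealed canisters with no such flow, so flushing, sealing and oxygen cannot be told apart. Both groups were 3-week-old seedlings of the accession Col-0. Before the 5 hours in foil-wrapped canisters, both had spent 24 hours in liquid medium with 3% sucrose after growth on agar. Each group had 2 replicates, each a pool of 5 seedlings from 1 dish, and each replicate was read on 1 Affymetrix array. All values are log2 expression values, in which a difference of 1 is a 2-fold difference. The array medians lay between 6.33 and 6.36, Pearson's r across probe sets was 0.996 within both groups and 0.945 to 0.949 between them, and 2 arrays per group set the precision of every value. These are whole roots, so fewer cells of a type and less RNA per cell cannot be told apart.

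The question was how the transcripts of the family differed between low and normal oxygen. Of the 37 measured genes, 15 fell, 1 rose and 21 did not pass, at an adjusted p under 0.05 (limma, Benjamini-Hochberg adjustment over all 22746 probe sets, 2-sided). Those that fell were 40.5% of the measured members, while 16.3% of all genes fell, and the 1 that rose stands beside 14.3% of all genes. The median log2 change of the members was -0.17, and that of all genes was 0.00. Both low oxygen arrays lay below both normal oxygen arrays for 19 members and above them for 4. Over all genes these shares were 31.9% and 30.3%.

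The calls were also counted by level. RMA values carry no detection call, and a value under 6 is taken here as near background. Of the 14 members with a mean over the 4 arrays of 6 and over, 12 fell, 1 rose and 1 did not pass. Of these 12, AT5G04970, ATPMEPCRB, AT5G51490 and AT3G05620 had a mean under 6 at low oxygen and reached the limit only through the normal oxygen arrays. Of all genes at such levels, 24.3% fell and 23% rose. The median log2 change of the 14 members was -0.89, against -0.01 for all genes at such levels. Of the 23 members with a mean under 6, 3 fell and 20 did not pass, and 8.62% of all genes at such levels fell. AT3G05620, just above the limit with a mean of 6.00, and AT5G19730, just below it at 5.99, both fell. At low oxygen 10 and 11 members reached 6 on replicates 1 and 2, while 16 did so on each normal oxygen array.

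**Figure D1:**
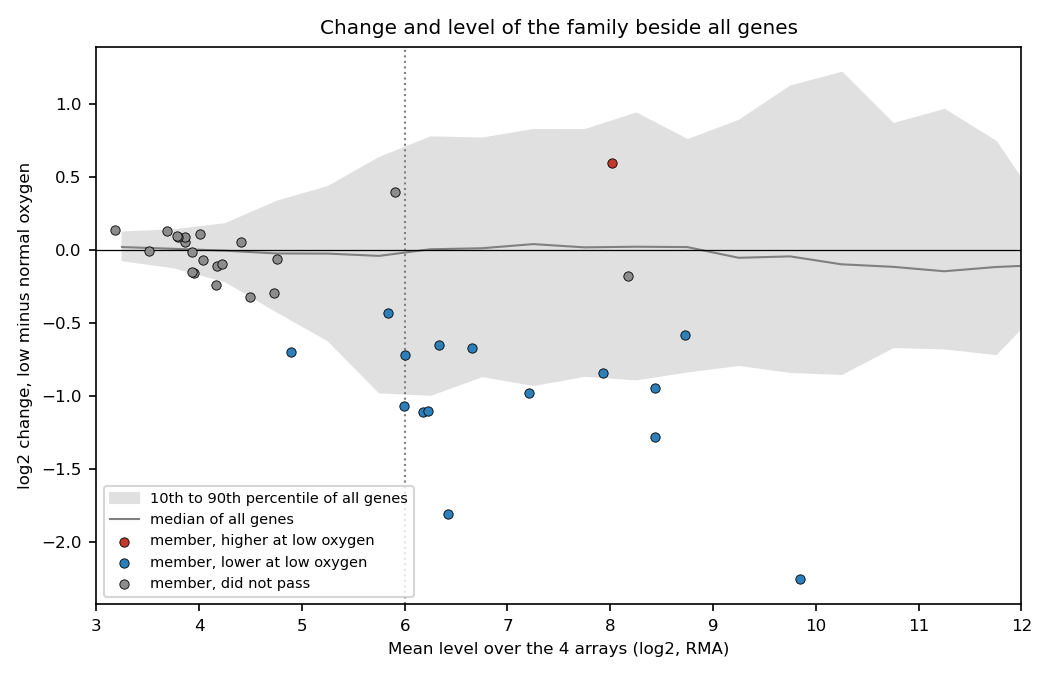
Mean level over the 4 arrays (log2, x axis) and log2 change, low minus normal oxygen (y axis), of the 37 measured members (points, coloured by call), with the median and the 10th to 90th percentile of all genes in level bins of 0.5 with at least 20 genes (line and band) and a dotted line at 6. To the right of the dotted line 12 of 14 members fell, and at the far left the members lie close to 0.

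Few markers of root cell types or of shoot tissue were measured. Of 10 root hair markers, 2 were measured and both fell (limma adjusted p = 5.1e-05 for EXPA7 and 1.2e-04 for EXPA18). Of all genes with a mean of 6 and over, 24.3% fell and 23% rose. EXPA7 had 7.35 and 7.37 at low oxygen, against 10.08 and 9.65 at normal oxygen, and EXPA18 had 7.58 and 6.70 at low oxygen, against 10.69 and 10.65 at normal oxygen. Their summed level was 8.47 and 8.07 at low oxygen, against 11.41 and 11.24 at normal oxygen (log2 of the summed linear values). RHS12, a member of the family known from root hairs, was not analysed here. Of 8 shoot markers, RCA alone was measured, with 8.14 and 8.37 at low oxygen, against 7.11 and 6.79 at normal oxygen, and it rose (log2 change 1.31, limma adjusted p = 5.9e-04). None of the 4 endodermis and 5 xylem markers was measured, so the root label was checked only through EXPA7 and EXPA18. The part of root hairs or of shoot tissue in the changes of the family was not tested.

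The largest fall was that of AT5G04960, with 9.10 and 8.35 on the low oxygen arrays, against 11.09 and 10.84 on the normal oxygen arrays. The groups lay 1.75 apart at their nearest, and the low oxygen replicates differed more from each other than the normal oxygen ones did. The log2 change was -2.25 (SE 0.24, adjusted p = 5.2e-04 by limma), a 4.75-fold fall. Its neighbour on the chromosome, AT5G04970, had 5.53 and 5.51 at low oxygen, against 7.44 and 7.22 at normal oxygen. That was a difference of -1.81 on the log2 scale (SE 0.11, limma adjusted p = 5.8e-05), which brought this transcript under the level of 6 on both low oxygen arrays. AT1G02810 stood at 8.06 and 7.54 at low oxygen and at 8.93 and 9.22 at normal oxygen, a 2.42-fold fall (log2 change -1.28, SE 0.19, limma adjusted p = 0.0023).

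A further 3 members fell by more than 1 on the log2 scale. ATPMEPCRB (AT4G02330), also called PME41 and known from chilling responses, had 5.57 and 5.68 at low oxygen, against 6.61 and 6.85 at normal oxygen. Its log2 change was -1.11 (SE 0.12, limma adjusted p = 5.7e-04). AT5G51490 had 6.04 and 5.31 at low oxygen, against 6.93 and 6.63 at normal oxygen, and the low oxygen replicates spread widely. Its log2 change of -1.10 (SE 0.24, limma adjusted p = 0.0118) was -0.73 without low oxygen replicate 2 and stayed past the threshold. AT5G19730 had 5.60 and 5.32 at low oxygen, against 6.62 and 6.43 at normal oxygen, a difference of -1.07 on the log2 scale (SE 0.13, limma adjusted p = 0.0011). Of these transcripts, the means at low oxygen were all under 6, so no folds are given for them. In all, 6 of the 37 members were at least 2-fold lower, and so were 4.63% of all genes.

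**Figure D2:**
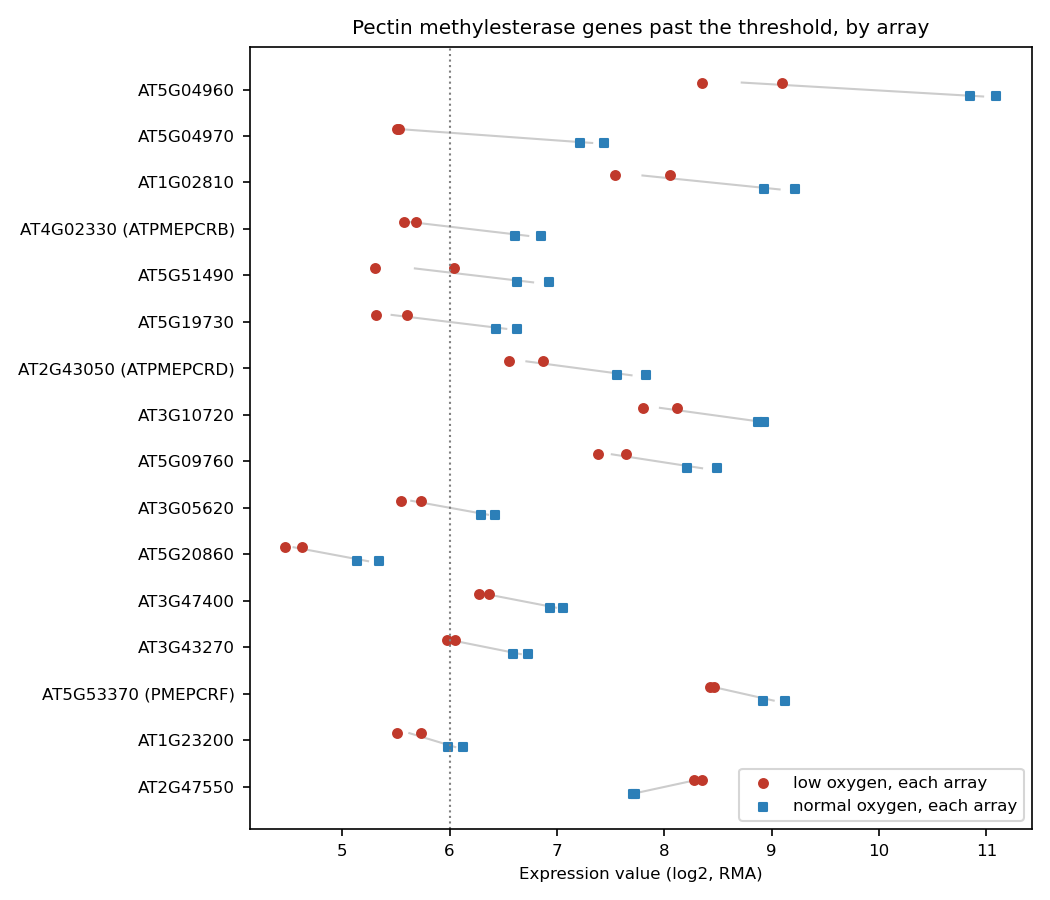
Expression value (log2, x axis) on each low oxygen array (circles) and each normal oxygen array (squares) for the 16 members past the threshold, ordered by log2 change, with a grey line joining the group means and a dotted line at 6. In the upper 15 genes both low oxygen arrays lie to the left of both normal oxygen arrays, and in AT2G47550 they lie to the right.

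Among members that stayed above 6 in both groups, the falls were smaller than 2-fold apart from those of AT5G04960 and AT1G02810. ATPMEPCRD (AT2G43050) had 6.56 and 6.87 at low oxygen, against 7.83 and 7.56 at normal oxygen, and fell 1.97-fold (limma adjusted p = 0.0025). AT3G10720 had 7.80 and 8.12 at low oxygen, against 8.93 and 8.87 at normal oxygen, and fell 1.92-fold (limma adjusted p = 0.0017). AT5G09760 had 7.64 and 7.38 at low oxygen, against 8.49 and 8.21 at normal oxygen, and fell 1.79-fold (limma adjusted p = 0.0039). In all of these the gap between the groups was wider than the distance between replicates of either group. PMEPCRF (AT5G53370) had 8.42 and 8.46 at low oxygen, against 9.12 and 8.91 at normal oxygen, a 1.49-fold fall (limma adjusted p = 0.0071). These groups also stayed apart. AT3G47400 had 6.37 and 6.28 at low oxygen, against 6.93 and 7.05 at normal oxygen (1.59-fold, limma adjusted p = 0.0027). AT3G43270 ended at the edge of the background range, with 5.98 and 6.05 at low oxygen, against 6.73 and 6.59 at normal oxygen (1.57-fold, limma adjusted p = 0.0032).

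The last 3 falls were of transcripts near the background range. AT3G05620 had 5.74 and 5.55 at low oxygen, against 6.29 and 6.42 at normal oxygen, a log2 change of -0.71 (limma adjusted p = 0.0031). AT5G20860 was under 6 on all arrays, with 4.62 and 4.47 at low oxygen, against 5.35 and 5.14 at normal oxygen, a log2 change of -0.69 (limma adjusted p = 0.0043). In both genes the groups did not overlap. AT1G23200 had 5.73 and 5.51 at low oxygen, against 5.99 and 6.12 at normal oxygen, a difference of -0.43 on the log2 scale (SE 0.12, limma adjusted p = 0.0307). Of the 15 falls, this was the one lost in other fits at an adjusted p of 0.05. It was lost in 3 of 10 alternatives, with adjusted p-values over the 10 from 0.0230 to 0.1648 in limma. Among the 3 were the fits without low oxygen replicate 2 (-0.32, limma adjusted p = 0.1648) and without normal oxygen replicate 2 (-0.36, limma adjusted p = 0.1126). The median log2 change of the 15 members that fell was -0.94, and that of the 2175 genes that fell in all was -0.73.

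AT2G47550 was the member that rose. It had 8.28 and 8.35 at low oxygen, against 7.72 and 7.71 at normal oxygen, and the replicates of each group lay close together. The rise was 1.52-fold (log2 change 0.60, SE 0.10, limma adjusted p = 0.0033). AT5G51500 had the next largest positive change, 0.40 (SE 0.20, limma adjusted p = 0.1965), and did not pass. Its values were 5.98 and 6.24 at low oxygen, against 6.01 and 5.41 at normal oxygen, so the groups overlapped and the normal oxygen replicates differed from each other. Without normal oxygen replicate 1, the higher of these, its change was 0.70 (limma adjusted p = 0.0097).

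Of the members with a mean of 8 and over, AT3G49220 alone did not pass. It had 8.26 and 7.91 at low oxygen, against 8.56 and 7.95 at normal oxygen, so that replicate 1 was the higher of the 2 in both groups. Its log2 change of -0.17 had a 95% confidence interval of -0.69 to 0.34 (limma adjusted p = 0.6241), which leaves room for falls of the size seen in PMEPCRF.

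**Figure D3:**
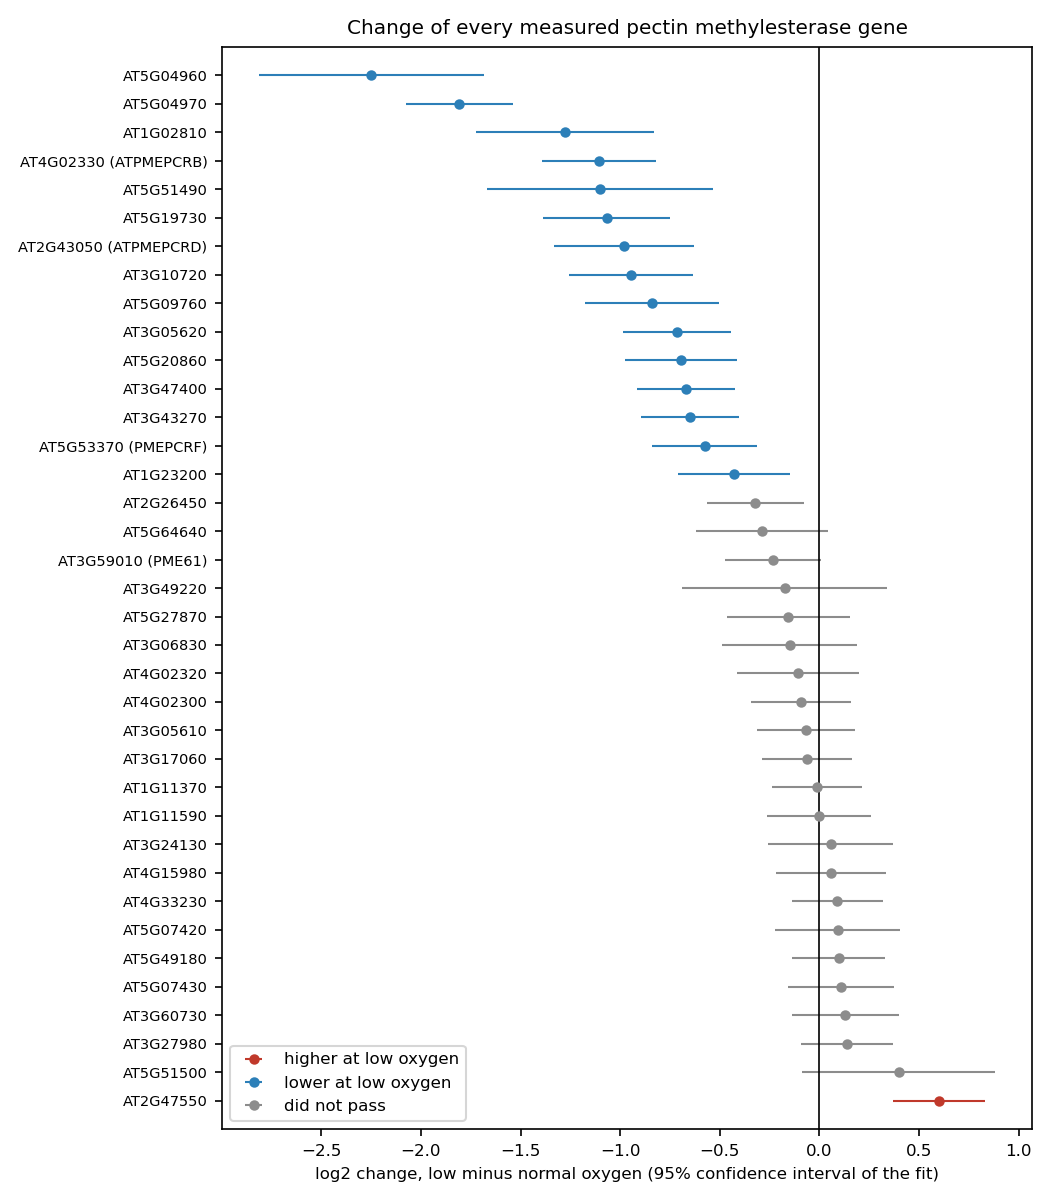
Log2 change, low minus normal oxygen, of all 37 measured members (points, x axis) with the 95% confidence interval of the limma fit, ordered from the largest fall to the largest rise and coloured by call. The 15 genes that fell fill the top of the plot, and most of the genes below them lie within 0.32 of 0.

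The other 20 members that did not pass had means under 6, with log2 changes between -0.32 and 0.40 and SEs of 0.09 to 0.20. Of these, 19 stood under 5 in both groups and had log2 changes of -0.32 to 0.14, where the 10th and 90th percentile of the change over all such genes were -0.17 and 0.16. AT2G26450 came nearest to the threshold, with 4.33 and 4.34 at low oxygen, against 4.72 and 4.58 at normal oxygen (log2 change -0.32, limma adjusted p = 0.0506). AT3G59010, whose symbols are PME61 and PME35 and which is known from the mechanical strength of stems, had 3.99 and 4.10 at low oxygen, against 4.24 and 4.32 at normal oxygen (limma adjusted p = 0.1274).

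Of the members known from pollen, those with a value stood in this range, some of them only on shared probe sets. VGD1, which is needed for pollen tube growth, and its homologue VGDH1 share a probe set that had 4.24 and 4.11 at low oxygen, against 4.07 and 4.04 at normal oxygen. PPME1, a pollen tube enzyme, shares a probe set with AT5G07410, which had 3.63 and 3.46 at low oxygen, against 3.46 and 3.47 at normal oxygen. Neither passed (limma adjusted p = 0.4349 and 0.6518). AT5G07420 and AT5G07430, which follow AT5G07410 on the chromosome, had log2 changes of 0.09 and 0.11. Of the 6 pollen markers on the list, 3 were measured, 2 of them also on the polygalacturonase list, and all were near background, with ACT12, a pollen actin, at 4.12 and 3.99 at low oxygen, against 4.11 and 3.94 at normal oxygen. The log2 of their summed linear values was 5.47 and 5.34 at low oxygen, against 5.40 and 5.28 at normal oxygen.

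Calls differed within some pairs of members that lie next to each other in the genome. By the order of protein-coding genes there were 13 adjacent pairs among the 58 loci, of which 5 had both genes measured. AT5G04960 and AT5G04970 both fell, and AT5G07420 and AT5G07430 both did not pass. In the other 3 pairs 1 gene fell and its neighbour did not pass. The log2 changes were -0.71 for AT3G05620 and -0.07 for AT3G05610, -1.11 for ATPMEPCRB and -0.11 for AT4G02320, and -1.10 for AT5G51490 and 0.40 for AT5G51500. In the pairs of AT3G05620 and of ATPMEPCRB, the gene that did not pass was near background in both groups. The differences between neighbours were not tested, and related sequences could share signal on an array.

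The other genes of the pathway were read from lists of loci. Proteins with the inhibitor domain, which include the inhibitors that bind and block pectin methylesterases, fell in 11 of the 24 measured of 49 listed, and 13 did not pass, where 16.3% of all genes fell. Their median log2 change was -0.32, against 0.00 for all genes. AT4G25250 had 6.88 and 6.51 at low oxygen, against 9.71 and 9.69 at normal oxygen, an 8.02-fold fall (limma adjusted p = 2.1e-05). Its neighbour AT4G25260 fell 6.88-fold, to 6.43 and 6.07 at low oxygen, against 9.14 and 8.92 at normal oxygen. In both of these neighbours the gap between the groups was far wider than the distance between replicates. AT2G01610 had a log2 change of -1.48, with a mean of 5.40 at low oxygen and 6.89 at normal oxygen. The degree of esterification in the wall was not measured.

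The enzymes that cut the backbone also had members that fell. Of the polygalacturonases, which cleave demethylesterified pectin by hydrolysis, 38 of 52 were measured, 14 fell and 24 did not pass, beside the 16.3% of all genes that fell. AT2G43880 had 4.94 and 4.62 at low oxygen, against 7.76 and 7.96 at normal oxygen, a difference of -3.08 on the log2 scale (SE 0.14, limma adjusted p = 2.0e-05). AT5G14650 fell 5.38-fold, to 7.13 and 6.55 at low oxygen, against 9.45 and 9.08 at normal oxygen. AT1G65570 also fell, with means of 5.09 at low oxygen and 7.10 at normal oxygen. Of the pectate lyases, which cleave pectin by elimination, 23 of 26 were measured, 10 fell and 13 did not pass, beside the same 16.3% of all genes. AT3G07010 fell 4.83-fold, to 6.65 and 6.46 at low oxygen, against 8.86 and 8.79 at normal oxygen. AT3G27400 and AT1G04680 fell by 1.38 and 1.18 on the log2 scale. The median log2 changes were -0.09 for the polygalacturonases and -0.30 for the pectate lyases. In limma's test 0 genes of either list rose, beside 14.3% of all genes. At an unadjusted p under 0.05 in limma 0 were higher, and the share of all genes at that limit was not counted. Of all genes with a mean of 6 and over, 24.3% fell. At such levels 9 of 10 inhibitor domain genes, 11 of 17 polygalacturonases and 8 of 11 pectate lyases fell. Most of these 11 polygalacturonases reached the limit only through the normal oxygen arrays. AT2G43880, AT3G62110, AT1G65570, AT3G61490, AT3G59850, AT4G23820 and AT1G02460 had means under 6 at low oxygen. So did the inhibitor domain gene AT2G01610 and the pectate lyase AT3G27400.

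Pectin acetylesterases, which remove acetyl groups, were measured in 6 of 12, of which 4 fell, 1 rose and 1 did not pass. Over all genes 16.3% fell and 14.3% rose. At a mean of 6 and over, 4 of the 5 measured fell and 1 rose, against 24.3% and 23% of all such genes. AT3G09405 was the one that rose, to 7.08 on both low oxygen arrays, against 5.22 and 4.86 at normal oxygen (log2 change 2.04, SE 0.14, limma adjusted p = 8.4e-05). With a mean of 5.04 at normal oxygen, it reached the limit of 6 only through the low oxygen arrays. Its neighbour AT3G09410 fell 1.49-fold, with means of 7.53 at low oxygen and 8.11 at normal oxygen (limma adjusted p = 0.0101). AT1G57590 fell 3.12-fold and AT3G05910 fell 1.52-fold. Without low oxygen replicate 2, 2 of these genes passed as lower in place of 4, and AT3G09410 (-0.55, limma adjusted p = 0.0686) was among those lost.

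**Figure D4:**
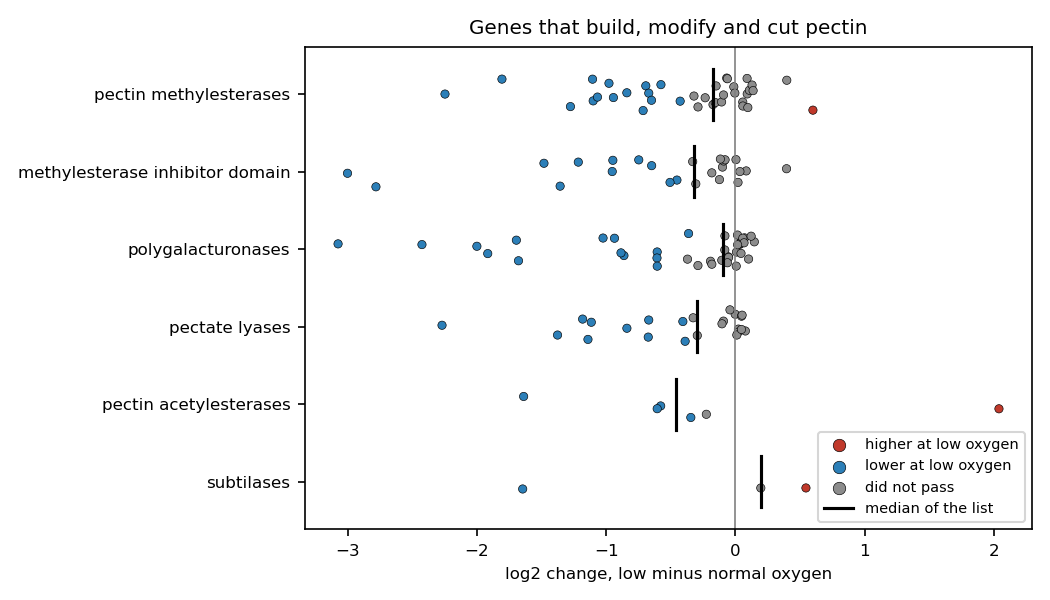
Log2 change, low minus normal oxygen (x axis), of every measured gene in 6 groups of pectin genes (rows), coloured by call, with a vertical bar at each group's median and points spread vertically for legibility. Genes that fell extend to -3.08 among the polygalacturonases and to -3.00 among the inhibitor domain proteins, while 1 acetylesterase gene lies at 2.04.

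Of the 3 subtilases reported to process pectin methylesterases, 1 fell, 1 rose and 1 did not pass. Over all genes, 16.3% fell and 14.3% rose. ARA12, a subtilase known from seed mucilage release, fell 3.13-fold, to 7.81 and 7.56 at low oxygen, against 9.41 and 9.25 at normal oxygen (limma adjusted p = 1.3e-04). SBT3.5 had 7.08 and 7.27 at low oxygen, against 6.68 and 6.57 at normal oxygen (1.46-fold higher, limma adjusted p = 0.0095), a call that was lost without low oxygen replicate 2 (0.45, limma adjusted p = 0.0657). S1P, a Golgi protease, had 7.40 and 7.57 at low oxygen, against 7.31 and 7.27 at normal oxygen, and did not pass (limma adjusted p = 0.2204).

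Few genes of pectin synthesis and sensing were measured. Of 25 galacturonosyltransferases only GAUT15 was measured, and it rose 1.83-fold, with 6.91 and 7.20 at low oxygen, against 6.30 and 6.06 at normal oxygen (limma adjusted p = 0.0033). Of 4 pectin methyltransferases only AT3G49720 was, and it fell 1.56-fold, with 9.68 and 9.59 at low oxygen, against 10.40 and 10.17 at normal oxygen (limma adjusted p = 0.0054). Of 7 wall-associated and pectin-sensing kinases, 2 were measured. THE1, a receptor kinase that monitors the wall, fell 3.38-fold, to 6.55 and 6.34 at low oxygen, against 8.27 and 8.13 at normal oxygen (limma adjusted p = 7.9e-05). FER, its pectin-binding relative, had 10.84 and 10.75 at low oxygen, against 11.14 and 10.93 at normal oxygen, and did not pass (limma adjusted p = 0.1579). Neither of the 2 polygalacturonase inhibitor genes was measured.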

How the data were processed

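Roots were read on 1-colour Affymetrix arrays from cRNA (7 ug input of total RNA), per the labels' protocols. The authors deposited log2 values (2.95 to 13.99), and the submitters' processing notes name RMA and limma without versions. RMA brings arrays to 1 distribution, so a shift common to every transcript is lost. The non-plant spike-in controls had a median log2 change of 0.20, low minus normal oxygen, and its cause was not tested. After 64 controls were dropped from the 22810 probe sets, 22746 were tested. The platform's probe table assigned 13513 of these to 1 gene and 503 to several, and 8730 were unnamed. Symbols and gene order came from RefSeq (TAIR10.1), which matched 13436 of the 1-gene probe sets, and 33 of the 37 measured members carry only a locus code.

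The groups were compared with limma (version 3.58.1, R 4.3.3, default eBayes prior, no block, Benjamini-Hochberg over all probe sets). The fit had 2 residual and 4.63 prior degrees of freedom. Members and lists were chosen with earlier results of these data known, and no table gives gene titles to check the lists against. All members past the threshold are named, with array values where the higher mean was at least 6, as are members at 8 and over and up to 3 genes per direction of each list. Further genes were named after their values were seen. On simulated data for this comparison (22746 probe sets), log2 changes of 0.5, 1, 2 and 3 were recovered in 8.0%, 84.0%, 100.0% and 100.0% of cases, with 13 false calls. Few of the simulated probe sets were changed, all upward, while 3594 rose and 3999 fell in the data. An adjusted p under 0.05 therefore asked for a smaller unadjusted p in the simulation than in the data. These shares and false calls do not give the power or error of the comparison itself. Alternatives changed the prior, normalization, block, dim-signal filter, threshold, averaging of probe sets and arrays used.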

Additional observations from a re-analysis of the deposited data

How the results depend on the processing

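The 15 falls and 1 rise of the family ran from 14 to 16 falls under the other priors, normalizations, filter and gene averaging, from 14 to 15 when single arrays were left out, and 13 at an adjusted p under 0.01. With at least 2-fold asked as well, 6 fell and 0 rose. When single arrays were left out there were 1 to 2 rises, the second being AT5G51500. AT2G26450 passed as lower with the trend and robust prior (adjusted p = 0.0270), quantile normalization (0.0466) and gene averaging (0.0488). No member past the threshold changed sign under an alternative that could give it a value. Same-numbered arrays are not stated to be paired, and their deviations correlated at 0.02. With the replicate block 14 members fell, AT1G23200 being lost (adjusted p = 0.0652), and 1 inhibitor domain gene, AT1G62760, rose (adjusted p = 0.0385).

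Over all probe sets, 3594 rose and 3999 fell. There were 2361 rises and 2701 falls at an adjusted p under 0.01, and 1174 rises and 1211 falls with at least 2-fold. Of all genes, 4.63% were at least 2-fold lower. So were 5 of 24 inhibitor domain genes, 7 of 38 polygalacturonases, 5 of 23 pectate lyases and 1 of 6 acetylesterases. ARA12 and THE1 were also at least 2-fold lower, and 0 methyltransferases were. At least 2-fold rises were 0 for the galacturonosyltransferases and the subtilases. At an adjusted p under 0.01, 2 acetylesterases fell. When single arrays were left out, there were 0 to 1 rises of the inhibitor domain genes, AT1G62760 passing without normal oxygen replicate 1 (0.56, adjusted p = 0.0243), 0 to 1 rises of the subtilases and 2 to 4 falls of the acetylesterases. Where an array was left out, the lone array of its group was assumed to vary like the other group. Stricter thresholds and fewer arrays lower the counts by construction, and the cause of the other shifts was not tested. Shared probe sets were read as values only. Signal over background limits the reading of the 23 members with a mean under 6, of which 3 passed.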
